A study of Rattus norvegicus with 28 samples.

Results

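Integrated stress response targets were examined in the left ventricle of male rats as a set of 10 named genes: Atf4, Atf5, Ddit3, Trib3, Chac1, Asns, Psat1, Phgdh, Shmt2 and Mthfd2. A member was measured where a probe carried its symbol alone, and the brightest such probe stood for the gene. This gave 7 of the 10 genes on 8 probes, all 7 above the low-value filter, out of 11493 genes kept in the whole data set. Asns, Psat1 and Phgdh had no probe with a single symbol and were not analysed here.

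The arrays fall into 3 groups of rats killed at 7 weeks of age. Untreated wild-type Sprague Dawley rats (SD) gave 8 arrays. Double transgenic rats (dTGR, SD-Tg(hAGT)L1623xTg(hREN)L10J), which carry the human angiotensinogen and renin genes on the SD background and whose phenotype label is HFpEF (hypertension induced), gave 8 arrays after vehicle (Transcutol, Cremophor-EL and water) and 12 arrays after BAY 41-8543 at 3 mg/kg/day (treated dTGR). BAY 41-8543 is a stimulator of soluble guanylate cyclase, and both dTGR groups were dosed by daily oral gavage from 4 weeks of age. Expression of the human transgenes is not read by rat probes, and the promoters that drive those transgenes are not given in the sources used here. SD rats had no gavage, so genotype and gavage cannot be told apart. In a bulk ventricle sample, fewer cells of a type and less RNA per cell cannot be told apart.

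The integrated stress response begins when kinases of the eIF2 family phosphorylate the initiation factor eIF2, which lowers general translation and raises translation of ATF4 from its mRNA. ATF4 is a bZIP transcription factor that pairs with C/EBP proteins and other partners and drives genes for amino acid supply, one-carbon metabolism and redox balance. Ddit3 (CHOP), Atf5, Trib3 and Chac1 are classical targets, and mitochondrial stress is known to induce Mthfd2 and Shmt2 through ATF4 in cultured cells. ATF4 activity is set largely by translation and protein turnover, which an array of mRNA does not measure.

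The promoters of 4 members are shown, those of Atf4 and Mthfd2 because these genes carried the differences between groups, and those of Chac1 and Trib3 because they hold the core of the ATF4 and C/EBP composite element. Each runs 5′ to 3′ on the strand of the gene, from 250 bases before to 50 bases after the annotated start, in the RefSeq annotation of build GRCr8. Atf4 lies at chr7:113684431-113684730 on the plus strand and Mthfd2 at chr4:117380301-117380600 on the minus strand. Chac1 lies at chr3:126795881-126796180 on the plus strand and Trib3 at chr3:161275484-161275783 on the minus strand. Capitals mark a match to TGATGNAA or its reverse complement TTNCATCA.
Atf4: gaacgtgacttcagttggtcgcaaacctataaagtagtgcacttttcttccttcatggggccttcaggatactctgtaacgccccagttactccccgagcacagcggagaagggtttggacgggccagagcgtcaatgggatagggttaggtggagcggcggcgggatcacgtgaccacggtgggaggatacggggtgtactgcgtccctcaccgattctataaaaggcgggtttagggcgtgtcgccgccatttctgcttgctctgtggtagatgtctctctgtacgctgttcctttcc
Mthfd2: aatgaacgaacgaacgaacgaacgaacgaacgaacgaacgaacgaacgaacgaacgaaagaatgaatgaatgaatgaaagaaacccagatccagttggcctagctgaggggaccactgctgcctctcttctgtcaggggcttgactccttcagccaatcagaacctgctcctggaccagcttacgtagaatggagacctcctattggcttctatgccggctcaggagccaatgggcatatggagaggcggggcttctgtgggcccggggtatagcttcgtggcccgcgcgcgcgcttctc
Chac1: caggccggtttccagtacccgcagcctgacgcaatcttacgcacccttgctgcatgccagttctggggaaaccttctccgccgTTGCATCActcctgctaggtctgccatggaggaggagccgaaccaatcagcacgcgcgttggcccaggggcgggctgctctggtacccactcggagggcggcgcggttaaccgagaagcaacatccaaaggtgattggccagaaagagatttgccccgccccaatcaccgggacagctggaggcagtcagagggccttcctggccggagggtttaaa
Trib3: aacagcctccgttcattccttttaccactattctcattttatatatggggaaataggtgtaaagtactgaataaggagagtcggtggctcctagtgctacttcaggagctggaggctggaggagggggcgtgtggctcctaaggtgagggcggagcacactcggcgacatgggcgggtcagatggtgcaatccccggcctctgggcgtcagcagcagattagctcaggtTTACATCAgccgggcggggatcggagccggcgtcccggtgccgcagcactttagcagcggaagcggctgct

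All 7 measured members had a promoter window in that annotation, and 2 of these windows held the composite core. The Atf5 window, chr1:104434746-104435045 on the minus strand, lies inside the annotated span of the gene (104432094 to 104437611). The outer 5′ end of Atf5 was therefore not searched. Chac1 read TTGCATCA beginning 167 bases before its start, and Trib3 read TTACATCA beginning 21 bases before its start, both as the reverse complement. The same letters on either strand were present in 1332 of 33469 rat promoters of that length (3.98%). The ER stress response element was in none of the members and in 0.0657% of all promoters, and the cyclic AMP response element TGACGTCA was in none of the members and in 1.83% of all promoters. The letters mark a sequence match in this window, and binding was not measured.

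Levels are log2 of the deposited intensity and are compared only within a probe. Differences stand with their standard error (SE), and limma's p-values were adjusted over all 11493 genes (Benjamini-Hochberg), with calls made under 0.05. The dimmer Mthfd2 probe is the exception and came from a separate fit, described with its values. The vehicle arrays enter both of the first comparisons below and the SD arrays enter the first and the last, so the comparisons are not independent. The cardiomyocyte markers Myh6, Myl3, Tnnt2, Tnni3 and Pln, 5 of 8 listed, were bright in all groups. Against SD, 2 were called lower in vehicle dTGR (Myh6 and Tnni3) and 2 in treated dTGR (Tnni3 and Pln). None was called between treated and vehicle dTGR. Their summed intensity ran from 319851 to 340091 in SD, 293004 to 318521 in vehicle dTGR and 288356 to 327470 in treated dTGR. Of 3 measured atrial markers of 4 listed, Bmp10 lay under the filter level of 5.65 in all groups, while Myl7 and Sln lay above it. Myl7 fell by 1.77 ± 0.36 SE in vehicle dTGR against SD (limma adjusted p = 0.00037), while Sln differed by -0.10 and was not called. The summed atrial intensity ran from 490 to 4325 in SD, from 403 to 1027 in vehicle dTGR and from 353 to 1105 in treated dTGR. On the first principal component of all kept genes (19.0% of the variance), vehicle replicates 6 (-0.84) and 7 (-2.92) lay within the range of the treated arrays (-7.94 to 4.72), replicate 3 lay at 10.21 and the other 5 vehicle arrays lay between 28.20 and 41.33. Results for the called members are therefore also given without vehicle replicates 6 and 7. These 2 arrays were picked because they lay among the treated arrays, so leaving them out tends to enlarge the vehicle differences. The larger values without them are therefore no independent check of a difference.

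In vehicle dTGR, 2 of the 7 measured members rose against SD, Mthfd2 and Atf4, none fell, and 5 did not pass the test. Across all genes 23.8% were called in that comparison, 12.1% higher and 11.7% lower. In treated dTGR 2 members, again Mthfd2 and Atf4, were lower than in vehicle dTGR and no member was higher, where 9.79% of all genes were called, 5.37% higher and 4.42% lower. No member was called between treated dTGR and SD, where 17.4% of all genes were called, 9.54% higher and 7.87% lower. The median difference of the 7 members was 0.44 for vehicle dTGR over SD (0.0033 over all genes), -0.19 for treated over vehicle dTGR (0.0097 over all genes) and 0.16 for treated dTGR over SD (0.0141 over all genes).

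**Figure D1:**
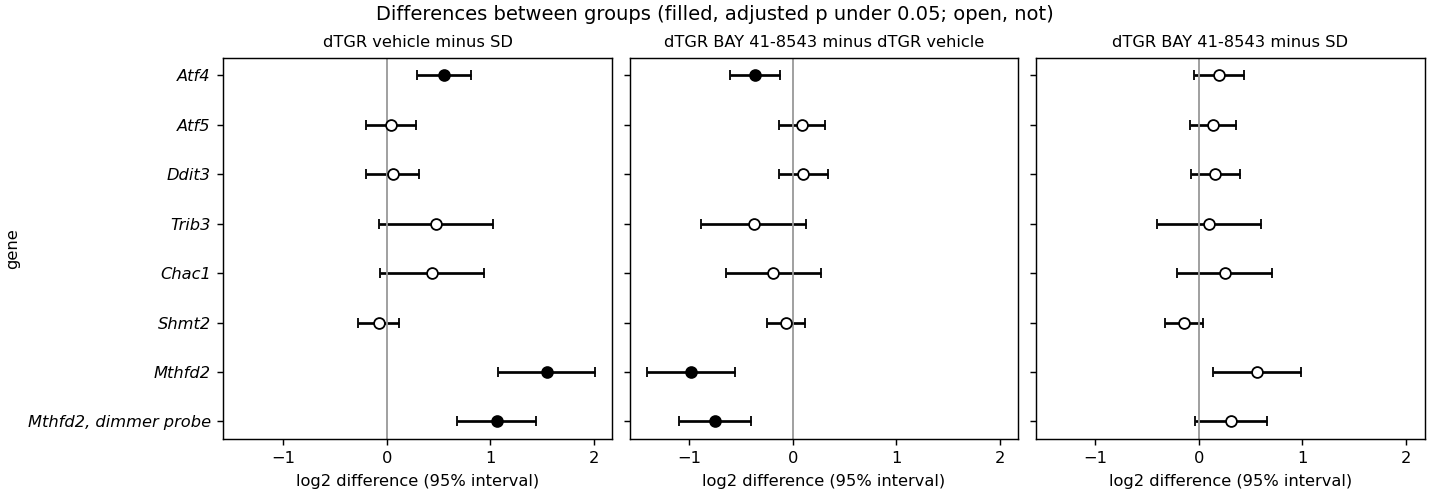
Log2 differences of the 7 members and of the dimmer Mthfd2 probe in the 3 comparisons, with 95% intervals from the limma fit; filled points have an adjusted p under 0.05. Mthfd2 and Atf4 are filled above 0 for vehicle dTGR minus SD and below 0 for treated minus vehicle dTGR, and all points are open for treated dTGR minus SD.

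Atf4, the transcription factor at the centre of the response, had log2 levels from 12.80 to 13.17 in SD with a median of 12.99, from 13.02 to 14.39 in vehicle dTGR with a median of 13.44, and from 13.04 to 13.41 in treated dTGR with a median of 13.19. The vehicle arrays were spread over a wider range, with a standard deviation of 0.50 (n = 8) against 0.11 in SD (n = 8) and 0.13 in treated dTGR (n = 12). Vehicle replicates 5 (14.39), 1 (14.12) and 4 (13.73) were the highest of all arrays, and replicates 3 (13.02) and 7 (13.09) were the lowest of their group and within the SD range. Of the 8 vehicle arrays 6 were above every SD array and 5 were above every treated array, and the groups overlapped. Atf4 rose 1.47-fold in vehicle dTGR over SD (log2 0.56 ± 0.13 SE, limma adjusted p = 0.00159, 8 of 8 arrays above the SD mean). Without vehicle replicates 6 and 7 the difference was 0.69.

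Treated dTGR had 1.28-fold less Atf4 than vehicle dTGR (log2 -0.36 ± 0.12 SE, limma adjusted p = 0.0473), with 12 of 12 arrays below the vehicle mean. This call lay close to the threshold and was lost in 29 of 41 alternative settings, over which the adjusted p ran from 0.00225 to 0.146. Leaving out 1 array lost it in 22 of 28 cases: any SD array but replicate 5, vehicle replicates 1, 2, 4, 5 or 8, and any treated array but replicates 3 and 11. The difference was -0.24 without vehicle replicate 5, -0.28 without vehicle replicate 1, and -0.50 without vehicle replicates 6 and 7. Treated dTGR did not differ detectably from SD (log2 0.19 ± 0.12 SE, interval -0.05 to 0.43, limma adjusted p = 0.297), although 12 of 12 treated arrays lay above the SD mean and 6 of them above every SD array. When only these 2 groups were fitted, without the wider spread of the vehicle arrays, the same difference passed with a limma adjusted p of 0.0132.

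Atf5, a bZIP factor of the same family that is linked to the mitochondrial unfolded protein response, had nearly equal levels in the groups. Its log2 levels ran from 9.07 to 9.85 in SD (median 9.28), from 9.09 to 9.94 in vehicle dTGR (median 9.46) and from 9.24 to 9.85 in treated dTGR (median 9.51). The ranges overlapped almost completely. The difference was 0.04 ± 0.12 SE for vehicle dTGR over SD (interval -0.20 to 0.29, limma adjusted p = 0.848) and 0.09 ± 0.11 SE for treated over vehicle dTGR (interval -0.13 to 0.31, limma adjusted p = 0.684).

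Ddit3 encodes CHOP, the factor that takes part in cell death under lasting stress. Its log2 levels ran from 9.66 to 10.39 in SD (median 9.99), from 9.41 to 10.47 in vehicle dTGR (median 10.11) and from 9.63 to 10.57 in treated dTGR (median 10.19). The groups overlapped, and the vehicle array with the most Atf4, replicate 5, had the least Ddit3 of all 28 arrays (9.41). The difference was 0.06 ± 0.13 SE for vehicle dTGR over SD (interval -0.20 to 0.32, limma adjusted p = 0.803) and 0.10 ± 0.12 SE for treated over vehicle dTGR (interval -0.13 to 0.34, limma adjusted p = 0.663). These intervals leave out a 1.47-fold change of the size seen for Atf4 in either direction.

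Trib3, a pseudokinase that binds ATF4 and AKT and restrains the response, had log2 levels from 5.66 to 7.53 in SD (median 6.84), from 6.49 to 8.27 in vehicle dTGR (median 7.02) and from 5.92 to 7.51 in treated dTGR (median 6.93). Only vehicle replicates 5 (8.27) and 1 (7.64) lay above every SD and every treated array. The difference of 0.48 ± 0.27 SE for vehicle dTGR over SD did not pass the test (interval -0.08 to 1.03, limma adjusted p = 0.223), nor did that of -0.38 ± 0.25 SE for treated over vehicle dTGR (interval -0.88 to 0.13, limma adjusted p = 0.39).

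Chac1, which degrades glutathione, lay close to the filter level, with log2 levels from 5.27 to 6.65 in SD (median 6.13), from 5.61 to 8.08 in vehicle dTGR (median 6.42) and from 5.84 to 6.90 in treated dTGR (median 6.35). In SD 2 arrays and in vehicle dTGR 1 array lay under the filter level of 5.65. Vehicle replicate 5 stood alone at 8.08, and the next vehicle array was at 6.56. The difference was 0.44 ± 0.25 SE for vehicle dTGR over SD (interval -0.06 to 0.94, limma adjusted p = 0.216), and 0.21 without that array. For treated over vehicle dTGR it was -0.19 ± 0.22 SE (interval -0.65 to 0.27, limma adjusted p = 0.686), and 0.04 without that array.

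Shmt2 and Mthfd2 encode mitochondrial enzymes that pass carbon units from serine to folate, and of the pair Mthfd2 was called and Shmt2 was not. Shmt2, the serine hydroxymethyltransferase, had log2 levels from 10.71 to 11.41 in SD (median 11.06), from 10.76 to 11.23 in vehicle dTGR (median 10.93) and from 10.62 to 11.22 in treated dTGR (median 10.90). The vehicle range lay inside the SD range. The difference was -0.08 ± 0.10 SE for vehicle dTGR over SD (interval -0.28 to 0.12, limma adjusted p = 0.644) and -0.06 ± 0.09 SE for treated over vehicle dTGR (interval -0.25 to 0.12, limma adjusted p = 0.739).

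Mthfd2, the methylenetetrahydrofolate dehydrogenase and cyclohydrolase of the next step, is known for low expression in most adult tissues. Its log2 levels ran from 7.44 to 8.34 in SD (median 8.08), from 8.17 to 10.42 in vehicle dTGR (median 9.76) and from 7.91 to 9.05 in treated dTGR (median 8.67). Of the 8 vehicle arrays 7 lay above every SD array, and replicate 7 (8.17) lay within the SD range. Vehicle replicates 1 (10.42) and 5 (10.22) were again the highest, followed by 8 (9.91), 2 (9.81) and 4 (9.71), and these arrays with replicate 3 (9.08) lay above every treated array. Of the 12 treated arrays 9 lay above every SD array.

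Mthfd2 rose 2.92-fold in vehicle dTGR over SD (log2 1.54 ± 0.23 SE, limma adjusted p = 6.37e-06, 8 of 8 arrays above the SD mean). It was 1.97-fold lower in treated than in vehicle dTGR (log2 -0.98 ± 0.21 SE, limma adjusted p = 0.00322, 12 of 12 arrays below the vehicle mean). Without vehicle replicates 6 and 7 these differences were 1.86 and -1.30. Treated dTGR had 1.48-fold more than SD, a difference that did not pass the test (log2 0.56 ± 0.21 SE, interval 0.14 to 0.99, limma adjusted p = 0.0587). That last difference was called in 9 of 41 alternatives, and the adjusted p ran from 0.00764 to 0.133. With only these 2 groups fitted, without the vehicle arrays, the same difference passed with a limma adjusted p of 0.00764. It also passed with array weights, with weights by group and without both vehicle replicates 6 and 7. The rest were the fits without vehicle replicate 1, 5 or 7 or treated replicate 7 or 9. The standard deviation was 0.35 in SD, 0.74 in vehicle dTGR and 0.35 in treated dTGR.

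A second, dimmer probe for Mthfd2 was called in the same 2 comparisons. It was tested in a separate limma fit of every kept probe with a single symbol, with p-values adjusted over those probes. Its log2 levels ran from 7.56 to 8.33 in SD (median 8.06), from 8.33 to 10.08 in vehicle dTGR (median 9.12) and from 8.04 to 8.65 in treated dTGR (median 8.28). Every vehicle array lay above every SD array, as was the case for 1.96% of all genes. The difference was 1.06 ± 0.19 SE for vehicle dTGR over SD (limma adjusted p = 6.87e-05), -0.75 ± 0.17 SE for treated over vehicle dTGR (limma adjusted p = 0.00492) and 0.31 ± 0.17 SE for treated dTGR over SD (limma adjusted p = 0.238).

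**Figure D2:**
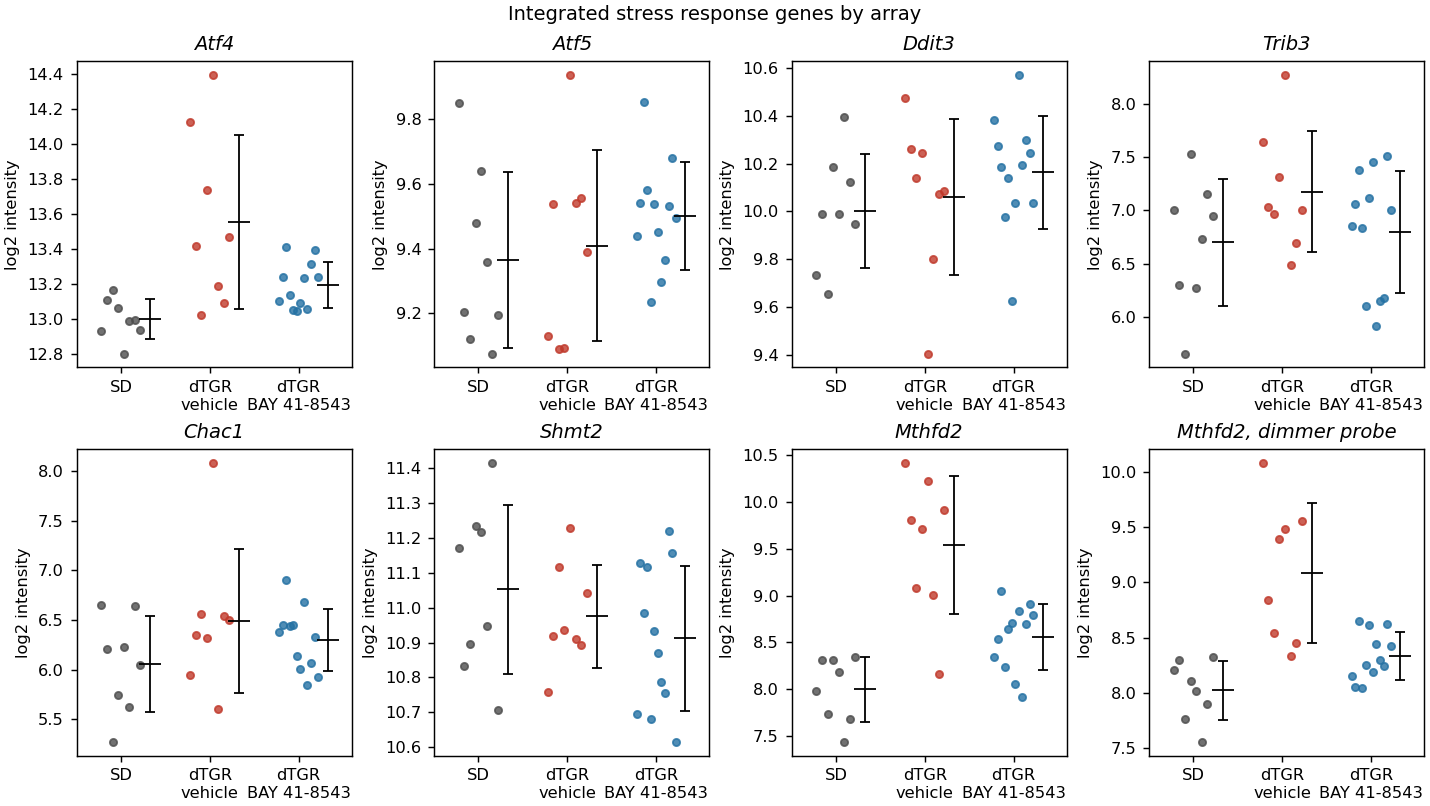
Log2 intensity of each member on every array (points) by group, with the group mean and standard deviation (black bars) beside them. Atf4 and Mthfd2 are spread upward in vehicle dTGR, from 13.02 to 14.39 and from 8.17 to 10.42, while Atf5, Ddit3 and Shmt2 lie at the same height in the 3 groups.

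Within the vehicle group the members did not order the arrays alike. Replicate 5 was the highest of its group for 5 of the 7 members (Atf4, Atf5, Trib3, Chac1 and Shmt2) and the lowest for Ddit3. Replicate 1 was the highest for Ddit3 and Mthfd2 and the lowest for Shmt2. In treated dTGR replicate 3 was the highest for 4 members (Atf4, Atf5, Chac1 and Mthfd2). Correlations were computed for 21 pairs of members within each of the 3 groups, 63 in all, and 1 passed adjustment.

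That pair was Atf4 and Trib3 in vehicle dTGR, with Pearson r = 0.93 (n = 8, exact permutation p = 0.000719, adjusted 0.0453). Spearman's rho was 0.88 (exact permutation p = 0.00724, adjusted 0.194), so the rank correlation did not pass, and r was 0.73 without the 2 arrays farthest from the median of Atf4. In SD the same pair had r = -0.26 and in treated dTGR r = 0.30. Atf4 and Mthfd2 had r = 0.82 in vehicle dTGR (n = 8, exact permutation p = 0.0124, adjusted 0.151), with rho = 0.83 (exact permutation p = 0.0154, adjusted 0.194), and r = 0.70 in treated dTGR (n = 12, permutation p = 0.012, adjusted 0.151). Atf5 and Ddit3 had r = -0.81 in vehicle dTGR (n = 8, exact permutation p = 0.0144, adjusted 0.151), with rho = -0.69 (exact permutation p = 0.0694, adjusted 0.437). Of the 63 correlations 10 had an unadjusted p under 0.05.

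**Figure D3:**
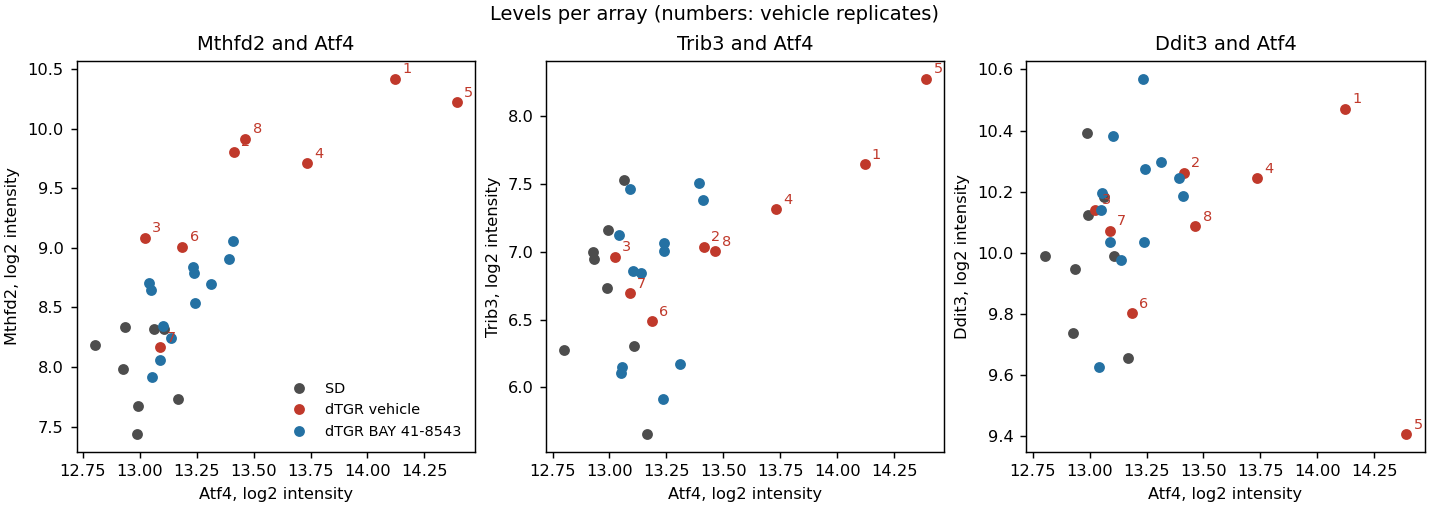
Log2 intensity of Mthfd2, Trib3 and Ddit3 against that of Atf4, 1 point per array, with the vehicle replicates numbered. Among vehicle arrays Mthfd2 and Trib3 are high where Atf4 is high (r = 0.82 and r = 0.93), while replicate 5 has the highest Atf4 (14.39) and the lowest Ddit3 (9.41).

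The genes whose levels ran most like Atf4 over the 28 arrays by Pearson r, among 11486 genes, were Bcar1 (r = 0.89, Spearman's rho 0.50), Ier3 (r = 0.89, rho 0.76), Slc7a5 (r = 0.89, rho 0.63), Hamp (r = 0.89, rho 0.88) and Tnfrsf1a (r = 0.88, rho 0.78). For the mean standardized level of the 7 members they were Cnppd1 (r = 0.85), Vsir (r = 0.83), Maff (r = 0.81), Litaf (r = 0.81) and Cib1 (r = 0.81). For Mthfd2, chosen after its values were seen, they were Gfpt2 (r = 0.93), Lyve1 (r = 0.92), Pla1a (r = 0.92), Lgals3 (r = 0.92) and Fgl2 (r = 0.91). These arrays share the 3 groups, and the correlations describe likeness only. After the group means were removed, r was 0.84 for Slc7a5 with Atf4 and 0.79 for Lgals3 with Mthfd2. That step leaves the wider spread of the vehicle arrays in place (standard deviation of Slc7a5 1.27 in vehicle dTGR and 0.09 in SD).

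Upstream of Atf4, the list of eIF2 kinases, eIF2 and eIF2B subunits and eIF2 phosphatases had 14 of 21 genes measured, and in vehicle dTGR 3 rose and 1 fell against SD. For this list and those below, 12.1% of all genes were called higher and 11.7% lower in that comparison. The shares were 5.37% and 4.42% for treated against vehicle dTGR, and 9.54% and 7.87% for treated dTGR against SD. Whether a list exceeded these shares was not tested. The gene that fell, Eif2b5 (log2 -0.25 ± 0.09 SE, limma adjusted p = 0.0352), lost its call in 14 of 41 alternatives. Among them were the fits without SD replicate 1, 4, 5, 6 or 7 or vehicle replicate 2, 3, 4 or 7 and the fit without both vehicle replicates 6 and 7. That last fit had 3 genes of the list higher and 0 lower, and Eif2b1 was not among the 3. Of all 11493 genes it had 1510 higher and 1552 lower. Eif2b1, which rose 0.34 ± 0.12 SE (limma adjusted p = 0.0339), lost its call in 9 of 41 alternatives. Among them were the fits without SD replicate 1, 3, 6 or 7 or vehicle replicate 2, 4 or 6, and without both vehicle replicates 6 and 7 (limma adjusted p = 0.0588). Ppp1r15a (GADD34), the phosphatase subunit that reverses eIF2 phosphorylation and is itself an ATF4 pathway target, rose 1.07 ± 0.17 SE on the log2 scale (limma adjusted p = 2.28e-05), with every vehicle array (11.2 to 13.1) above every SD array (10.3 to 10.9). It was lower by -0.67 ± 0.16 SE in treated than in vehicle dTGR (limma adjusted p = 0.00675). The kinase genes Eif2ak3 (PERK) and Eif2ak4 (GCN2) differed from SD by -0.05 ± 0.08 SE and 0.07 ± 0.10 SE, and Eif2s1, the subunit they phosphorylate, by 0.18 ± 0.08 SE. None of these was called, except Eif2s1 when SD replicate 8 was left out (limma adjusted p = 0.0389).

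Among other ATF4 targets and partners outside the named members, of 16 measured genes of 24 listed 8 rose and 3 fell in vehicle dTGR against SD, with a median difference of 0.24. Atf3, a stress-induced bZIP repressor, rose 4.92-fold (log2 2.30 ± 0.42 SE, limma adjusted p = 0.00012), with every vehicle array above every SD array. One vehicle array, replicate 1, carried much of this size, and the difference was 1.71 without it. Cebpb, a bZIP partner of ATF4, rose 1.43 ± 0.23 SE (limma adjusted p = 2.42e-05), and Nupr1, a small stress-induced nuclear protein, rose 1.41 ± 0.22 SE (limma adjusted p = 1.29e-05). Gdf15, a secreted stress hormone, rose 1.69 ± 0.34 SE (limma adjusted p = 0.000294), with every vehicle array (7.36 to 9.63) above every SD array (4.97 to 7.20). In SD 2 of 8 Gdf15 values lay under the filter level of 5.65. Stc2, a secreted glycoprotein counted among ATF4 targets, fell instead by 1.19 ± 0.14 SE (limma adjusted p = 2.01e-07), and Sesn2 differed by 0.21 ± 0.17 SE and was not called. Ddit4 (REDD1), an inhibitor of mTORC1, rose 1.33 ± 0.33 SE (limma adjusted p = 0.00293). Cebpg, a bZIP partner of ATF4, rose 0.31 ± 0.10 SE (limma adjusted p = 0.0194), a call lost without vehicle replicate 5 (adjusted p = 0.0515). The probes of Fgf21 and of the cystine transporter gene Slc7a11 lay under the filter and were not tested.

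In treated against vehicle dTGR the same list had 5 genes lower and 2 higher. Cebpb differed by -1.38 ± 0.21 SE (limma adjusted p = 0.000422), Nupr1 by -0.80 ± 0.20 SE (limma adjusted p = 0.00964) and Atf3 by -1.33 ± 0.39 SE (limma adjusted p = 0.0247). Without vehicle replicate 1 the Atf3 difference was -0.74, and with only these 2 groups fitted its adjusted p was 0.063. Ddit4 differed by -1.09 ± 0.30 SE (limma adjusted p = 0.019), a call lost without vehicle replicate 4, 5 or 8 (adjusted p from 0.0545 to 0.0592). Stc2 was higher in treated dTGR by 0.53 ± 0.13 SE (limma adjusted p = 0.0076). Gdf15 was close to its vehicle level (-0.31 ± 0.31 SE, limma adjusted p = 0.614) and was 1.38 ± 0.31 SE above SD (limma adjusted p = 0.00148). In treated dTGR against SD the list had 2 genes higher and 3 lower. Nupr1 stayed higher by 0.61 (limma adjusted p = 0.0311), a call lost in 8 of 41 alternatives. Stc2 stayed lower, at -0.66 (limma adjusted p = 0.000326). Atf3 was not called there in the fit of all 3 groups, yet 12 of 12 treated arrays (8.85 to 9.61) lay above every SD array (7.99 to 8.35). Its mean level was 9.18 in treated dTGR and 8.21 in SD. The standard deviation was 0.24 in treated dTGR, 0.13 in SD and 1.75 in vehicle dTGR, whose arrays enter the shared estimate of spread.

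Amino acid transporters, another group that ATF4 is known to drive, had 16 of 21 genes measured, of which 8 rose and 1 fell in vehicle dTGR against SD, with a median of 0.36. Slc7a5 and Slc3a2 encode the light and heavy chains of the large neutral amino acid exchanger. Slc7a5 ran from 9.12 to 9.41 in SD, from 9.12 to 13.0 in vehicle dTGR and from 9.07 to 9.73 in treated dTGR, so that 6 of 8 vehicle arrays lay above every treated array. It rose 1.71 ± 0.31 SE against SD (limma adjusted p = 0.000107) and was lower by -1.54 ± 0.28 SE in treated than in vehicle dTGR (limma adjusted p = 0.00106). Slc3a2 differed by 1.20 ± 0.20 SE (limma adjusted p = 2.8e-05) and by -0.97 ± 0.18 SE (limma adjusted p = 0.00106) in the same comparisons. In treated against vehicle dTGR 4 transporters were lower and none higher. Slc1a3, a glutamate transporter, rose 1.71 ± 0.20 SE in vehicle dTGR (limma adjusted p = 2.14e-07) and was 2.08 ± 0.19 SE above SD in treated dTGR (limma adjusted p = 1.37e-09).

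Enzymes of amino acid synthesis and one-carbon metabolism other than the members had 1 of 17 measured genes of 29 higher and 2 lower in vehicle dTGR against SD (12.1% and 11.7% of all genes) and a median of -0.05. Psph, the last enzyme of serine synthesis, differed by 0.16 ± 0.13 SE (limma adjusted p = 0.394). Mthfd1l and Aldh1l2, which act beside Mthfd2 in mitochondrial folate metabolism, differed by -0.01 ± 0.20 SE (limma adjusted p = 0.974) and -0.36 ± 0.27 SE (limma adjusted p = 0.38). In treated against vehicle dTGR 1 gene of this list was called, Aldh18a1 of proline synthesis, which was higher by 0.57 ± 0.14 SE (limma adjusted p = 0.0081). Aldh1l2 differed by 0.66 ± 0.25 SE there (limma adjusted p = 0.0845) and was called without vehicle replicate 3, 6 or 7 (0.75 to 0.83, adjusted p from 0.0172 to 0.0471). Its level was low, and 2 of 8 vehicle arrays lay under the filter level of 5.65. Without both vehicle replicates 6 and 7 this list had 3 genes higher and 0 lower in treated than in vehicle dTGR. It had 1 higher and 4 lower in vehicle dTGR against SD. The calls over all 11493 genes were also many in that fit. They were 1148 higher and 917 lower in treated than in vehicle dTGR, and 1510 higher and 1552 lower in vehicle dTGR against SD.

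Among tRNA synthetases 3 of 16 measured genes of 20 rose and none fell in vehicle dTGR (12.1% and 11.7% of all genes), led by Tars1 at 0.30 ± 0.08 SE (limma adjusted p = 0.00281). In treated against vehicle dTGR 1 was called, Aars1, which was lower (log2 -0.19 ± 0.06 SE, limma adjusted p = 0.0412). The Aars1 call was lost in 16 of 41 alternatives (adjusted p up to 0.112), among them the fits without vehicle replicate 2, 4, 5 or 8 or treated replicate 3, 4, 6, 7, 8 or 11. The ER unfolded protein response list, with 17 of 29 genes measured, had 1 gene higher and 5 lower in vehicle dTGR (12.1% and 11.7% of all genes), with a median of -0.07. Hspa5 (BiP), the main ER chaperone, fell by 0.34 ± 0.07 SE (limma adjusted p = 0.000286) and Hyou1, its nucleotide exchange factor, fell by 0.71 ± 0.09 SE (limma adjusted p = 9.51e-07). Xbp1 fell by 0.21 ± 0.07 SE (limma adjusted p = 0.0273), a call lost without SD replicate 2 or 3 or vehicle replicate 3 or 8 (adjusted p from 0.0504 to 0.0715). It was also lost without both vehicle replicates 6 and 7 (limma adjusted p = 0.0639). Dnajb9, an XBP1 target, differed by -0.02 ± 0.09 SE and was not called. Without vehicle replicates 6 and 7 this list had 2 genes higher and 3 lower, where 1510 of all 11493 genes were higher and 1552 lower. Of 10 measured mitochondrial chaperone and protease genes of 14, none rose and 1 fell in vehicle dTGR, Afg3l2 (log2 -0.18 ± 0.06 SE, limma adjusted p = 0.0357). Its call was lost in 11 of 41 alternatives (adjusted p up to 0.085), among them the fits without SD replicate 1, 4, 6, 7 or 8 or vehicle replicate 1, 2 or 4. Clpx, the unfoldase of the ClpXP protease, was lower in treated than in vehicle dTGR by -0.36 ± 0.08 SE (limma adjusted p = 0.00457).

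**Figure D4:**
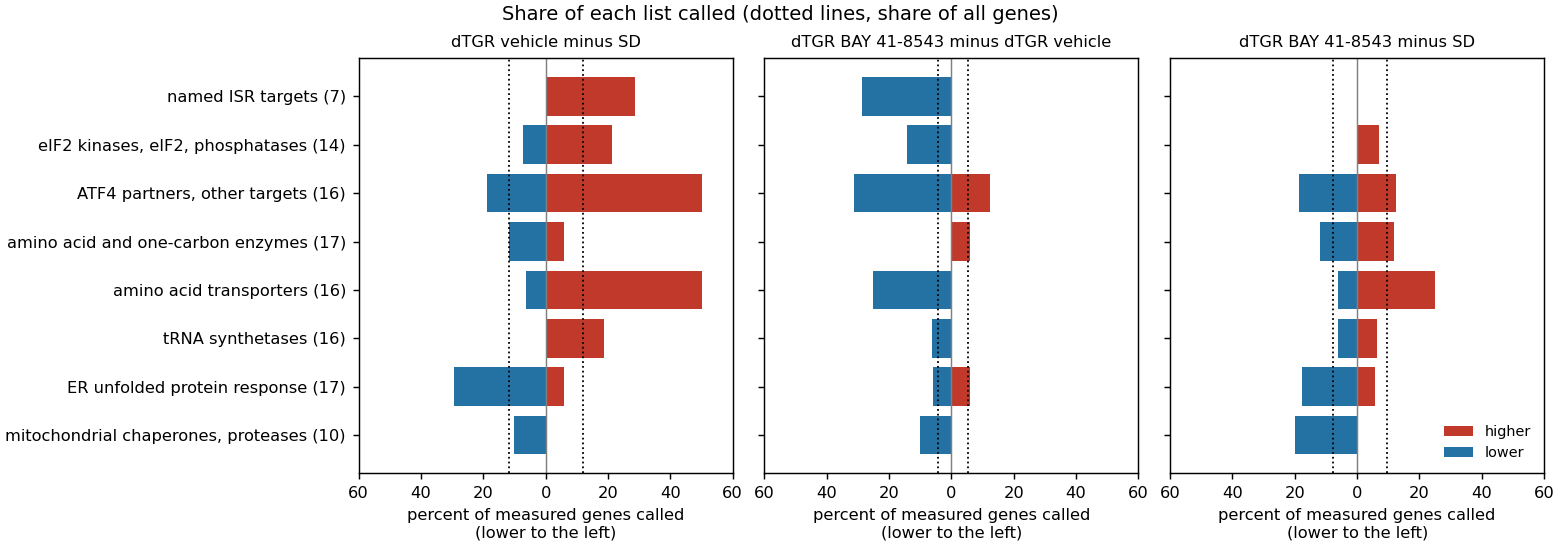
Percent of the measured genes of each pathway list called higher (right) or lower (left) in the 3 comparisons, with the number measured in parentheses and dotted lines at the share of all genes. ATF4 partners and other targets (8 of 16) and amino acid transporters (8 of 16) have the longest bars to the right among these 8 pathway lists (cell type markers are not drawn) for vehicle dTGR minus SD, against 12.1% of all genes.

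Markers of other cell types moved between the same groups. Of 7 measured macrophage markers of 8 listed, 6 rose and 1 fell in vehicle dTGR against SD, and 3 were lower and 1 higher in treated than in vehicle dTGR. Their summed intensity ran from 7448 to 12020 in SD, from 11801 to 21423 in vehicle dTGR and from 9068 to 17428 in treated dTGR, with no marker under the filter level. The highest vehicle sums were in replicates 5 (21423) and 1 (21237), the arrays with the most Atf4 and Mthfd2, and the lowest were in replicates 7 (11801) and 6 (13353). Of 3 neutrophil markers above the filter, of 4 listed, 1 rose in vehicle dTGR against SD, Lcn2 (log2 2.58 ± 0.37 SE, limma adjusted p = 3.38e-06), while S100a9 differed by 0.61 ± 0.25 SE and Csf3r by 0.01 ± 0.23 SE. In treated against vehicle dTGR 1 was called lower, S100a9 (log2 -0.91 ± 0.23 SE, limma adjusted p = 0.00986). The summed neutrophil intensity ran from 453 to 1907 in SD, from 2011 to 4871 in 7 vehicle arrays with 15082 in replicate 5, and from 1640 to 2424 in treated dTGR. In vehicle dTGR Lcn2 made up most of this sum, with a mean log2 level of 11.71 against 7.59 for S100a9 and 6.57 for Csf3r. In treated dTGR against SD Lcn2 was called higher (log2 1.71), while S100a9 (-0.30) and Csf3r (-0.34) were not called. S100a8 was under the filter level in SD and treated dTGR. Of 4 measured erythroid and 4 measured mesothelial markers, 3 of each were called lower in each dTGR group against SD. The erythroid marker Slc4a1 (0.19 in vehicle and 0.03 in treated dTGR) and the mesothelial marker Krt19 (-0.40 and -0.43) were not called, and Lrrn4, a mesothelial marker, was under the filter level in vehicle dTGR. The part of these cell types in the differences of Atf4 and Mthfd2 was not tested.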

How the data were processed

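Each array comes with normalized intensity values for its probes as the authors deposited them. The submitters' processing notes name RMA, with neither version nor scaling. The values are linear, from 1.90 to 162208, with array medians from 99.5 to 107, and log2 was taken before every test. Background was not used here, and the filter kept probes whose log2 mean over arrays exceeded that of 30 percent of the 36685 probes (5.65). Gene symbols came from the platform annotation, in which 14824 probes carry 1 symbol, and 14670 of them matched RefSeq by gene number.

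All 28 arrays entered 1 limma 3.58.1 model in R 4.3.3 with a mean per group and an intensity trend, tested on both sides and adjusted by Benjamini-Hochberg over 11493 genes. The limma step was tested on simulated data in which each gene had the same spread in the 3 groups. That test does not cover the wider spread of the vehicle arrays. Permutation tests of correlations were exact for 8 arrays and used 100000 resamples for 12 arrays, in scipy 1.17.1. Separate animals are given by number alone, so p-values cover the spread between these samples, and no 2 arrays held identical values. The number of arrays limits the precision. No batch is given, animal numbers differ between groups and nothing was paired. The animal numbers of SD, vehicle and treated rats form separate blocks. Neither genotype nor treatment can therefore be told apart from any difference between those blocks.

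The study's design text gives 4 weeks of treatment, which differs from gavage between 4 and 7 weeks of age. Total RNA (250 ng) was amplified and labelled with biotin, per the labels' protocols.

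The members and gene lists were chosen with earlier results of these data known. The text names all members, a fixed set of pathway genes called or not, up to 4 called genes per pathway list and comparison, up to 2 called markers per cell type list, and the 5 genes most correlated with Atf4 and with the members' mean. Named examples come from among them. Alternatives covered the filter, the probe rule, the groups fitted, array weights, the scaling, the prior and each array left out, and, added after seeing the data, both vehicle replicates 6 and 7 left out.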

Additional observations from a re-analysis of the deposited data

Results flagged for a closer look

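Chac1 in vehicle dTGR had 1 array far from the other 7: replicate 5 at a log2 level of 8.08, where the next was at 6.56. It was the single such array among 16 sets of values examined, each 1 member probe in SD or in vehicle dTGR (8 arrays each), and chance flags about 1 in 20 such sets. The same array had the highest Atf4, Atf5, Trib3 and Shmt2 of its group and the lowest Ddit3.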

How the results depend on the processing

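Each value was recomputed under up to 41 alternatives, and of 858 values for the members 814 kept their direction and their side of the threshold, 29 lost a call, 10 gained one and 5 changed sign. For 45 other named genes 3483 of 3608 values were kept, 102 lost a call, 5 gained one and 18 changed sign. In vehicle dTGR against SD 2 members were called in all 41 alternatives, with Mthfd2 between 1.42 and 1.74 and Atf4 between 0.44 and 0.63 when 1 array was left out. In treated against vehicle dTGR the number of members called fell from 2 to 1 (Atf4 was lost) with no filter, with only the 2 groups fitted, with array weights, after quantile normalization again, with arrays centred on their medians, with a prior without intensity trend and with a robust prior, and was 1 to 2 when 1 array was left out. The cause was not tested. All genes called in that comparison numbered 1125, from 659 (without vehicle replicate 4; 733 without replicate 5) to 1558 when 1 array was left out, and 2065 without vehicle replicates 6 and 7. In treated dTGR against SD the number of members called was 0, but 2 with only the 2 groups fitted, 1 with array weights, 1 with weights by group, 1 without vehicle replicates 6 and 7, and 0 to 1 when 1 array was left out.

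Differences that changed sign were small and not called. For vehicle dTGR minus SD with 1 array left out, Ddit3 ran from -0.0006 to 0.1515, Atf5 from -0.032 to 0.113, Dnajb9 from -0.0601 to 0.0115 and Mthfd1l from -0.116 to 0.0394. Mthfd1l was also 0.0028 with array weights. For treated minus vehicle dTGR with 1 array left out, Chac1 ran from -0.3139 to 0.0402, Dnajb9 from -0.0319 to 0.0461 and Sesn2 from -0.0172 to 0.1413. For treated dTGR minus SD Trib3 ran from -0.0507 to 0.22. Without vehicle replicates 6 and 7, Atf5 (-0.0028) and Mthfd1l (0.0258) in vehicle dTGR minus SD and Dnajb9 (-0.0137) and Sesn2 (-0.0221) in treated minus vehicle dTGR also changed sign. Chac1 was not kept under a filter at the median of all probes and has no value there. No paired analysis was possible because the animal numbers in the labels differ between the groups and no shared replicate number is given.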
